A study of Mus musculus with 77 samples.

Results

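Blood miRNA of B6 mice (data set G) was compared between 5 mice that were susceptible and 5 that were resilient to chronic social defeat stress (CSDS), over all 299 miRNAs of the deposited table. The members were chosen by the labels alone, as the samples of strain C57BL/6Crl with a susceptible or resilient phenotype, and they make up 10 of the 77 samples of the series and 10 of its 25 blood miRNA samples. All were male, 8 weeks old at dissection, and had been defeated by aggressive CD-1 mice before their trunk blood was taken 6 to 8 days after the last defeat. Mice that avoided a social target in a behavioral test were classed as susceptible and the others as resilient, so the groups share the whole stress procedure and differ in a behavioral score that is continuous, with a border set from unstressed mice. For sequencing the study took the extremes of this score, with the highest values for resilient and the lowest for susceptible mice. The 5 control mice of the same strain, sex and age had lived beside a neighbor mouse without defeat. Controls were taken for scores nearest to the mean.

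miRNAs are short RNAs that guide Argonaute proteins to partly matching messenger RNAs, mostly through the seed, bases 2 to 8 from the 5′ end, and lower the output of those messages. Each hairpin precursor can yield a mature miRNA from its 5′ arm (5p) and one from its 3′ arm (3p). Whole blood holds red cells rich in miR-451a and miR-144, white cells with miR-142, miR-150 and miR-223, platelets, and traces of RNA from other tissues.

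By the criteria of the study, an unadjusted P under 0.05 and a fold change (FC) of at least 1.2, 9 of 299 miRNAs (3.01%) were differentially expressed (DE) between susceptible and resilient mice, 8 of them higher (2.68%) and 1 lower (0.334%) in susceptible mice. They are called nominally DE below. The mature sequences of 8 of the 9 are shown because the seed decides which messages a miRNA can pair with, and because a count of a short RNA rests on these few bases. The seed is in capitals, and sequences and positions are those of RefSeq on GRCm38.
miR-744-5p: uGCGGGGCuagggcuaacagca
miR-345-5p: gCUGACCCcuaguccagugcuu
miR-30c-5p: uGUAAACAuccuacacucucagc
miR-181b-5p: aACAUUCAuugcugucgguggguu
miR-6516-5p: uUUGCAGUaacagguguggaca
miR-141-5p: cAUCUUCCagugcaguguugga
miR-296-5p: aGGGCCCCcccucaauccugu
miR-5620-5p: aCGAGGCAggggcuuugacugug
The ninth, miR-143-5p, is named only. The 8 sequences carried 8 different seeds. Their content of G and C ran from 43.5% in miR-30c-5p to 66.7% in miR-296-5p, beside a median of 47.8% over the 253 blood miRNAs with a RefSeq sequence. All 9 nominally DE miRNAs were 5p arms, as were 85.0% of the rows of the blood table, in which 17 rows (5.69%) were 3p arms. In the table of miRNAs bound to Argonaute 2 (AGO2) in the BNST, a forebrain region of the extended amygdala, 46.6% of rows were 3p arms, and the most used arms of several blood miRNAs, such as miR-223-3p and miR-126a-3p, were not analysed here for blood.

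After adjustment by the Benjamini-Hochberg method, 0 of 299 miRNAs (0%) passed 0.05 in limma, and the smallest adjusted P was 0.993. At an unadjusted P under 0.05 limma gave 9, where that threshold alone would give 14.95 of 299. An exact permutation test of the 10 mice gave 12 miRNAs under 0.05 (4.01%), of which 6 were among the 9. The susceptible and resilient groups were fully apart for 0 of 299 miRNAs (0%), so every miRNA named here had at least 1 mouse inside the range of the other group. Of all 299, 173 were higher and 126 lower in susceptible mice, with a median difference of 0.05 on the log2 scale.

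**Figure D1:**
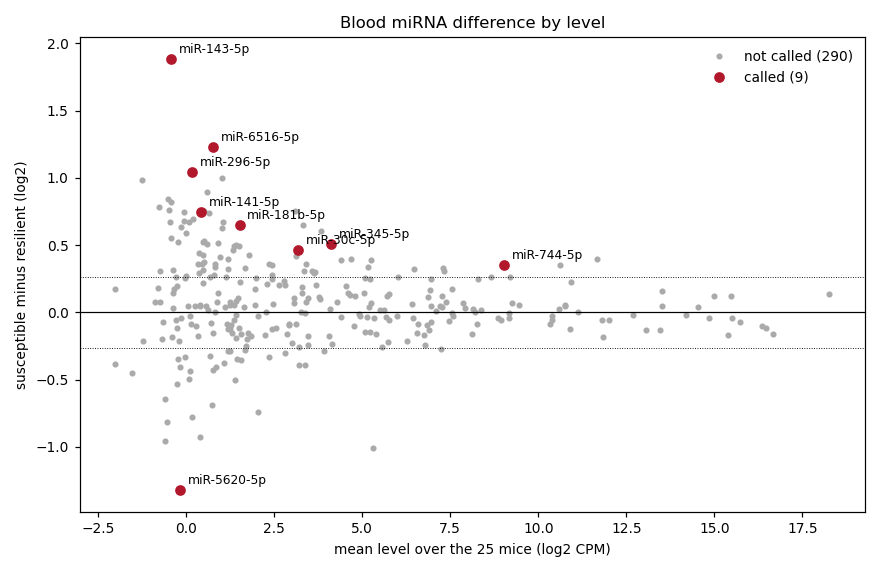
Difference between susceptible and resilient mice (log2, vertical axis) of the 299 blood miRNAs against their mean level over all 25 mice (log2 CPM, that is log2 of reads scaled to a normalized library size, horizontal axis), with the 9 nominally DE miRNAs in red and dotted lines at a fold of 1.2. Only miR-744-5p lies to the right of a level of 5, and the spread of the grey points widens toward low levels.

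The depth was similar in both groups. Between 7073460 and 10113657 reads lay on the 299 miRNAs in susceptible mice and between 6916739 and 9366549 in resilient mice, and 1 read was worth 0.0994 to 0.172 CPM. The 5 most abundant miRNAs, miR-451a, let-7i-5p, miR-21a-5p, let-7g-5p and miR-30a-5p, took 65.2% to 69.8% of the reads in resilient and 65.2% to 69.1% in susceptible mice. miR-451a, the main miRNA of red cells, made up at most 34.8% of the reads in resilient and at most 37.8% in susceptible mice. Its log2 CPM was 18.27 ± 0.26 (SD) in resilient and 18.41 ± 0.16 in susceptible mice, and none of these 5 miRNAs was nominally DE, with differences between -0.16 and 0.13. In bulk blood, fewer cells of a type and less RNA per cell cannot be told apart.

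The nominally DE miRNA with by far the most reads was miR-744-5p, which lies in an intron of Map2k4, a kinase of stress signaling, on the same strand (chr11:65734799-65734820, minus strand). Its level in resilient mice 1 to 5 was 8.83, 8.82, 8.60, 8.90 and 8.91 log2 CPM, from 2777 to 4765 reads. In susceptible mice 1 to 5 it was 8.85, 9.17, 9.19, 9.18 and 9.44, from 3465 to 5859 reads. Susceptible mice 2 to 5 stood above every resilient mouse, and susceptible mouse 1 lay inside the resilient range. The difference was 0.35 ± 0.17 (log2, SE), a 1.28-fold higher level, with P = 0.0473 in limma and an exact permutation P of 0.0238. Its host gene Map2k4 had 4.66 ± 0.14 log2 CPM in blood mRNA of resilient mice and 4.65 ± 0.17 (SD) in susceptible mice, a difference of -0.01 ± 0.09 (SE).

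miR-345-5p and miR-30c-5p were read at 49 to 200 reads per mouse. miR-345-5p lies in an intron of Slc25a47, a mitochondrial carrier gene, on the same strand (chr12:108836989-108837010, plus strand). It reached 3.92, 3.61, 4.03, 3.25 and 4.02 log2 CPM in resilient mice 1 to 5 and 4.74, 4.11, 4.02, 4.21 and 4.29 in susceptible mice 1 to 5. Susceptible mouse 3 was level with the highest resilient mice, and the other 4 susceptible mice were above all resilient mice. The difference was 0.51 ± 0.22 (1.42-fold higher, limma P = 0.0278), with an exact permutation P of 0.0159. Slc25a47 itself was near the detection limit in blood mRNA, at -0.34 ± 1.01 log2 CPM in resilient and -0.18 ± 0.74 (SD) in susceptible mice.

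miR-30c-5p belongs to the miR-30 family, whose members share the seed shown above. The same mature sequence is made from Mir30c-1, in an intron of the transcription factor gene Nfyc (chr4:120769584-120769606, minus strand), and from Mir30c-2, in an exon of the noncoding gene Gm27028 (chr1:23291714-23291736, plus strand), so its reads cannot be assigned to a locus. Resilient mice 1 to 5 had 3.08, 3.16, 2.70, 3.09 and 3.07 log2 CPM, and susceptible mice 1 to 5 had 3.79, 3.50, 3.38, 3.62 and 3.13. The single overlap was susceptible mouse 5, which fell just under resilient mouse 2. The difference of 0.47 ± 0.21 corresponds to a 1.38-fold higher level (limma P = 0.0335) and had an exact permutation P of 0.0159.

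Among the blood miRNAs with a RefSeq sequence, miR-30a-5p, miR-30e-5p and miR-384-5p carried the seed of miR-30c-5p, and none of them was nominally DE. miR-30a-5p, at 16.14 ± 0.13 log2 CPM in resilient and 16.07 ± 0.16 (SD) in susceptible mice, differed by -0.07 (exact permutation P = 0.444). miR-30e-5p, whose gene lies 3076 bases from Mir30c-1, differed by -0.17 (exact permutation P = 0.151), and miR-384-5p, with 43 reads in all resilient and 64 in all susceptible mice, by 0.82 (exact permutation P = 0.373). miR-30b-5p and miR-30d-5p, whose sequences were not matched, differed by 0.35 ± 0.31 and -0.04 ± 0.12 (SE). In the miR-30 family as listed, 1 of 6 members was nominally higher, 0 were lower and the median difference was -0.06, beside 0.05 over all miRNAs. miR-30c-5p held 319 reads in all resilient mice, against 2845558 of miR-30a-5p. Among the reads as counted, its call concerns a minor part of those with this seed. How reads of a sequence made from several loci were shared is not known, so this count may not hold all of its reads.

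miR-181b-5p, of a family known for its role in lymphocyte development, is also the miRNA that the study names for this comparison in blood, a choice made on these samples, so its difference is not independent evidence of a direction. Its mature form comes from Mir181b-1 (chr1:137966650-137966673, plus strand, in an exon of the noncoding gene A430106G13Rik and an intron of Gm4258) and Mir181b-2 (chr2:38853845-38853868, plus strand, inside an intron of Nr6a1 on the opposite strand). It had 20, 15, 13, 12 and 28 reads in resilient mice 1 to 5, at 1.15 ± 0.30 log2 CPM (mean ± SD). It had 32, 29, 45, 31 and 13 reads in susceptible mice 1 to 5, at 1.80 ± 0.47 log2 CPM. On the log2 CPM scale susceptible mice 1 to 4 were above all resilient mice, and susceptible mouse 5 was among the lower resilient values. The difference was 0.65 ± 0.25 (1.57-fold higher, limma P = 0.0169), with an exact permutation P of 0.0397.

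Of the 3 members of the miR-181 family in the table, only miR-181b-5p was nominally DE. miR-181c-5p and miR-181d-5p, which carry the same seed, had differences of 0.02 ± 0.17 and 0.03 ± 0.14 (SE) with exact permutation P of 0.833 and 0.706. Both were far more abundant, with 11244 and 9600 reads in all resilient mice, against 88 reads of miR-181b-5p. As with miR-30c-5p, most of the counted reads with this seed therefore belonged to members that were not called. The count of miR-181b-5p, also made from several loci, may likewise not hold all of its reads. miR-181a-5p, whose genes lie beside those of miR-181b-5p, was not analysed here for blood.

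miR-6516-5p, miR-296-5p and miR-5620-5p were read at 1 to 28 reads per mouse, where a change of a few reads moves a log2 value by much. miR-6516-5p lies in an exon of the noncoding gene Snhg20, where the annotation also places Gm26083, a gene for a small RNA of Cajal bodies, on the same strand (chr11:117077370-117077391), so reads of these genes could be shared. Its reads were 2, 2, 16, 10 and 15 in resilient mice 1 to 5 and 11, 14, 20, 28 and 15 in susceptible mice 1 to 5. Resilient mice 1 and 2 were far under all the others, while resilient mice 3 to 5 lay within the susceptible range. The difference was 1.23 ± 0.45 (2.34-fold higher, limma P = 0.0115), with an exact permutation P of 0.119. Over summed reads the rate in susceptible mice was 1.87 times that in resilient mice (exact 95% interval 1.29 to 2.74, for counting error only).

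miR-296-5p lies on the minus strand of chromosome 2 (chr2:174267093-174267113), and no annotated gene other than miRNAs spans it. It had 4, 4, 1, 5 and 8 reads in resilient mice 1 to 5 and 5, 9, 10, 14 and 8 in susceptible mice 1 to 5. On the log2 CPM scale susceptible mice 2 to 5 were above every resilient mouse and susceptible mouse 1 was between resilient mice. The difference was 1.04 ± 0.44 (2.06-fold higher, limma P = 0.0250), with an exact permutation P of 0.0317 and a summed rate 2.00 times that in resilient mice (exact 95% interval 1.18 to 3.49). Its neighbor miR-298-5p, 460 bases away, was at 3.65 ± 0.26 log2 CPM in resilient and 3.95 ± 0.37 (SD) in susceptible mice, a difference of 0.30 (exact permutation P = 0.175).

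miR-5620-5p was the only nominally DE miRNA that was lower in susceptible mice. It lies in an intron of Clcn4, a chloride transporter gene, on the opposite strand (chr7:7298891-7298913, plus strand). It had 10, 9, 7, 11 and 6 reads in resilient mice 1 to 5 and 1, 8, 4, 1 and 8 in susceptible mice 1 to 5. Susceptible mice 1, 3 and 4 were under every resilient mouse, and susceptible mice 2 and 5 were within the resilient range. The difference was -1.32 ± 0.47 on the log2 scale (limma P = 0.00924), with an exact permutation P of 0.0794. The summed rate in susceptible mice was 0.490 times that in resilient mice (exact 95% interval 0.279 to 0.837).

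The 2 remaining nominally DE miRNAs were listed as smooth muscle and epithelial miRNAs, and their cells of origin in these samples were not tested. miR-143-5p is the minor arm of a hairpin whose 3p arm is abundant in smooth muscle. Resilient mice 1 to 5 had 8, 1, 0, 3 and 14 reads of it, and susceptible mice 1 to 5 had 18, 16, 13, 12 and 5. Resilient mice 1 and 5 lay within the susceptible range, and resilient mouse 3 had no read, where 3 reads would be the upper limit that a count of 0 allows. The fitted difference was 1.89 ± 0.74 (limma P = 0.0168, exact permutation P = 0.0476), and over summed reads the rate was 2.36 times that in resilient mice (exact 95% interval 1.47 to 3.87).

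The major arm showed no such difference. miR-143-3p was at 10.52 ± 0.41 log2 CPM in resilient and 10.47 ± 0.31 (SD) in susceptible mice, a difference of -0.05 ± 0.32 (SE, exact permutation P = 0.833). miR-145a-5p, made from the same primary transcript, was at 4.46 ± 0.63 in resilient and 4.86 ± 0.89 in susceptible mice (exact permutation P = 0.460). Of the smooth muscle genes Acta2, Cnn1, Des, Tagln, Myh11 and Lmod1, 3 were in the blood mRNA table, with a summed level of 2.13 to 4.56 CPM in resilient and 3.32 to 8.12 CPM in susceptible mice. Their part in the call of miR-143-5p was not tested.

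miR-141-5p belongs to the miR-200 group, which keeps epithelial cells epithelial, and lies beside miR-200c on chromosome 6 (chr6:124717959-124717980, minus strand, in an intron of the noncoding gene Gm15884). It was at 1.15, -0.81, 0.41, -0.08 and 0.55 log2 CPM in resilient mice 1 to 5, from 4 to 17 reads. It was at 0.85, 0.29, 1.65, 1.14 and 1.02 in susceptible mice 1 to 5, from 10 to 31 reads. Only susceptible mouse 3 was above every resilient mouse, and resilient mouse 1 was above 4 of the 5 susceptible mice. The difference was 0.75 ± 0.36 (1.68-fold higher, limma P = 0.0487), with an exact permutation P of 0.103. With the title prefix of the samples as a covariate it was 0.70 and no longer called.

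Single mice stood out for its relative miR-200a-5p. It was at 3.22 log2 CPM in resilient mouse 1 and between -1.22 and 1.06 in the other resilient mice, and it reached 3.52 in susceptible mouse 4 and 2.11 in susceptible mouse 3. The summed level of the epithelial genes Epcam, Krt8, Krt18 and Cdh1 in blood mRNA of the same mice was 77.2 CPM in resilient mouse 1 and 1.24 to 4.16 CPM in the other 4 resilient mice. In susceptible mice 1 to 5 it was 5.34, 3.92, 35.0, 83.2 and 19.4 CPM, and in controls 2.88 to 44.3 CPM. The mice with most epithelial mRNA were thus also those with most miR-200a-5p, in both phenotypes. Krt18 was nominally DE in blood mRNA (2.71 ± 1.26, SE), and Krt8 (2.41 ± 1.29), Epcam (0.72 ± 0.59) and Cdh1 (-0.20 ± 0.52) were not. Krt5 and Krt14 were not analysed here, and the part of these mice in the call of miR-141-5p was not tested. All 4 epithelial miRNAs in the table were higher in susceptible mice, with a median difference of 0.54, and 1 of 4 was nominally DE. By the title prefix of the samples, described below, their median was -0.35 in EC3 and 1.44 in EC4 mice, and 2 of the 4 had an interaction P under 0.05. The median of the epithelial genes in blood mRNA was -0.54 in EC3 and 3.69 in EC4 mice.

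**Figure D2:**
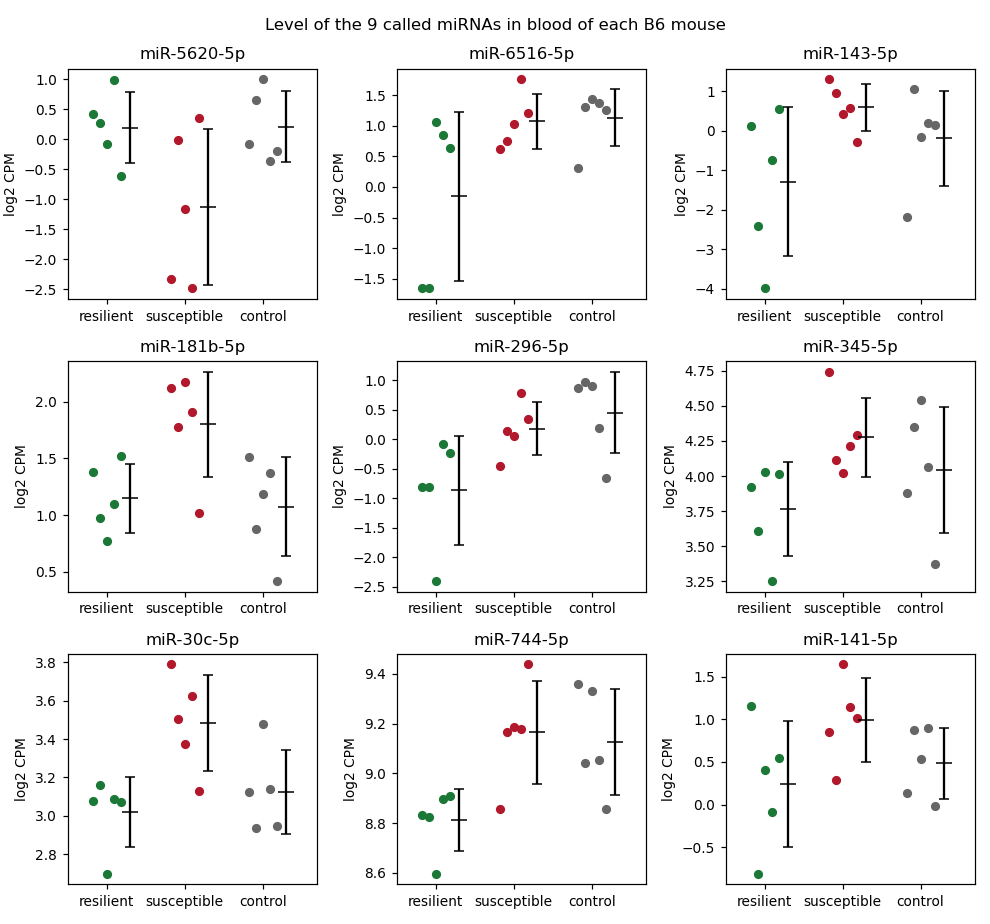
Level (log2 CPM, vertical axis) of the 9 nominally DE miRNAs in each resilient (green), susceptible (red) and control (grey) B6 mouse, 5 per group from mouse 1 at the left to mouse 5 at the right, with mean and SD beside each group. In every panel at least 1 susceptible mouse lies within the range of the resilient mice or the reverse.

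Levels in the control mice are set beside those of the stressed groups. These comparisons share their mice with the one above, so they add values and no independent support. A choice by the gap between the stressed groups favors miRNAs in which either group lies away from controls. In susceptible mice against controls 12 of 299 miRNAs (4.01%) were nominally DE, and in resilient mice against controls 13 (4.35%). miR-181b-5p was nominally DE against controls in susceptible mice, with a log2 difference of 0.73, and not in resilient mice, with 0.08. miR-5620-5p was nominally DE in susceptible mice, at -1.33 against controls, and differed by -0.01 in resilient mice. For both, the resilient mean was close to that of controls.

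For miR-296-5p and miR-6516-5p the resilient mean lay further from that of controls than the susceptible mean. miR-296-5p was nominally DE against controls in resilient mice, at -1.32 from 1 to 8 reads per resilient mouse, and differed by -0.28 in susceptible mice. miR-6516-5p was nominally DE in resilient mice, at -1.29, and differed by -0.06 in susceptible mice. Only resilient mice 1 and 2, with 2 reads each, lay under the control range of 0.32 to 1.43 log2 CPM. Resilient mice 3 to 5 lay within it. The other 5 nominally DE miRNAs passed in neither comparison with controls. For miR-744-5p the mean was 8.81 in resilient, 9.13 in control and 9.16 log2 CPM in susceptible mice, and for miR-143-5p it was -1.29, -0.19 and 0.59.

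Of the 9 calls, miR-5620-5p was kept with each of the 10 mice left out in turn, over a range of -1.69 to -0.98. The call of miR-181b-5p was lost without susceptible mouse 3 (0.56) and that of miR-143-5p without resilient mouse 3, the mouse with no read (1.21). miR-296-5p lost its call without resilient mouse 3 (0.66) or susceptible mouse 4 (0.89), and miR-6516-5p without resilient mouse 1 or 2 (0.85 each). miR-345-5p was called in 7, miR-30c-5p in 6, miR-141-5p in 3 and miR-744-5p in 2 of the 10 fits with a mouse left out. miR-141-5p fell to 0.48 without resilient mouse 2. None of the 9 changed direction in these fits. Over the other settings, miR-181b-5p kept its call in 12 of 12, miR-143-5p and miR-5620-5p in 11 of 11, miR-345-5p and miR-6516-5p in 11 of 12, miR-30c-5p in 10 of 12, miR-296-5p in 9 of 11, miR-744-5p in 8 of 13 and miR-141-5p in 4 of 12. The totals differ because low miRNAs were not tested in settings with a minimum level. miR-143-5p, miR-5620-5p and miR-296-5p fell below both minima, of 10 reads on average and of a mean log2 CPM of 5. Of the others, only miR-744-5p reached the second minimum. Under quantile normalization miR-744-5p fell to 0.19. With 5 reads added to each count the differences of low miRNAs shrank, to 0.86 for miR-143-5p, 0.73 for miR-6516-5p, 0.54 for miR-296-5p, 0.50 for miR-141-5p and -0.67 for miR-5620-5p.

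**Figure D3:**
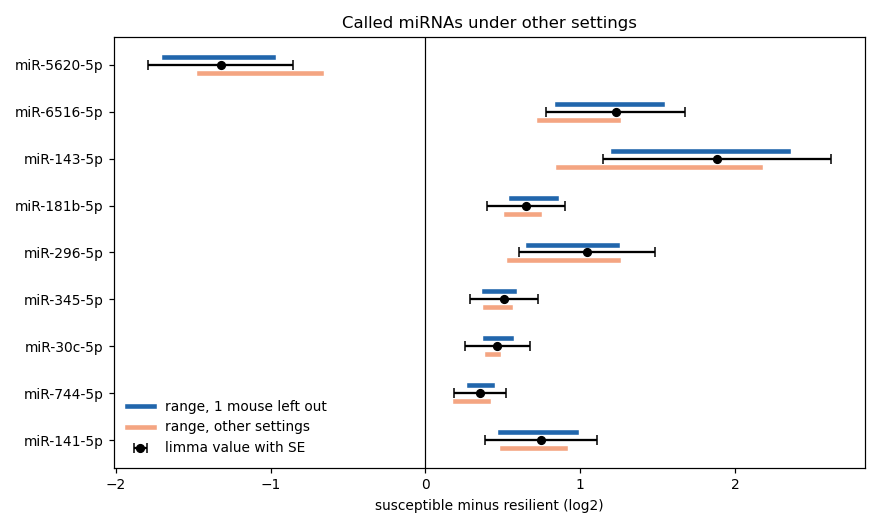
Difference between susceptible and resilient mice (log2, horizontal axis) of the 9 nominally DE miRNAs, with the limma value and its SE in black, the range over 10 fits with 1 mouse left out in blue and the range over the other settings in orange. All ranges stay on 1 side of 0, and that of miR-744-5p comes nearest to it, at 0.19 under quantile normalization.

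Just outside the threshold were miR-501-5p (0.75), miR-214-5p (0.89) and miR-700-5p (0.65), with higher means in susceptible mice. miR-501-5p, in an intron of Clcn5, had 2.77, 1.75, 2.73, 2.76 and 3.30 log2 CPM in resilient mice 1 to 5 and 3.83, 3.38, 3.32, 3.37 and 3.16 in susceptible mice 1 to 5. Only susceptible mouse 5 was under the highest resilient mouse, and the exact permutation P was 0.0159, as small as for miR-345-5p and miR-30c-5p.

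The other miRNAs that the study names for blood were not nominally DE in this comparison. The study names them for comparisons with controls, miR-148a and miR-592 in susceptible mice and miR-34c and miR-3076 in B6 resilient mice. miR-148a-5p was at 3.01 ± 0.16 log2 CPM in resilient and 3.21 ± 0.35 (SD) in susceptible mice (exact permutation P = 0.278). miR-592-5p was at 1.49 ± 0.30 and 0.99 ± 0.47 (exact permutation P = 0.0873), with susceptible mice 2 to 5 under every resilient mouse and susceptible mouse 1 within their range. miR-34c-5p varied widely among resilient mice, at 4.29, 1.80, 4.43, 1.74 and 3.69, and lay between 2.80 and 4.02 in susceptible mice (exact permutation P = 0.563). miR-3076-3p differed by 0.52 ± 0.37 (SE, exact permutation P = 0.238).

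Larger miRNA families and cell type groups showed small differences. The 4 erythroid miRNAs had a median difference of -0.01, the 5 myeloid miRNAs -0.05, the 3 lymphocyte miRNAs -0.12 and the 10 members of the let-7 family -0.07, beside 0.05 over all 299 miRNAs, and none of their members was nominally DE. In the clusters related to that of miR-17, which promote cell division, 9 of 12 members were higher in susceptible mice with a median of 0.19 and 0 of 12 nominally DE. There miR-20a-5p (0.40 ± 0.24, SE) and miR-17-5p (0.23 ± 0.15) had exact permutation P of 0.0317 and 0.0397 and were not nominally DE in limma. The 4 members of the X-linked cluster of miR-322 and miR-503 had a median of 0.21, the 18 miRNAs of the imprinted Dlk1-Dio3 locus -0.10, the 11 of the Sfmbt2 intron 0.00 and the 7 with the seed of miR-15 and miR-16 0.06, all without a nominally DE member. Medians were -0.17 for 3 neural, -0.04 for 3 intestinal and renal, 0.36 for 2 muscle, 0.29 for 3 members of the miR-34 family and -0.02 for 2 of the miR-148 family, and miR-126a-5p of endothelium and platelets differed by 0.11, again without a call.

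The differences were also set apart by sample title. The sample titles carry the prefix EC3 or EC4, whose meaning the labels do not give. Resilient mice 1 to 3 and susceptible mice 1 and 2 were EC3, and resilient mice 4 and 5 and susceptible mice 3 to 5 were EC4. A test added after the values had been seen asked whether the difference between phenotypes changed with the prefix, and 51 of 299 miRNAs (17.1%) had an interaction P under 0.05 in limma. None passed adjustment (smallest adjusted P 0.101), and all 51 had opposite signs in EC3 and EC4, which a choice by the size of the change favors. Of all 299 miRNAs, 181 had opposite signs. The 9 nominally DE miRNAs had the same sign under both prefixes, which a choice by the pooled difference favors.

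miR-150-5p, the main miRNA of mature lymphocytes, had one of the smallest interaction P values. In EC3 it was at 7.24, 7.39 and 7.79 log2 CPM in resilient mice and at 8.90 and 9.17 in susceptible mice. In EC4 it was at 8.33 and 9.66 in resilient mice and at 7.35, 8.53 and 7.80 in susceptible mice, lower on average in the susceptible mice. The differences were 1.56 in EC3 and -1.11 in EC4 (limma, adjusted P = 0.101 for the interaction), against 0.27 over all mice.

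Of the 8 listed lymphocyte and myeloid miRNAs, 4 had an interaction P under 0.05. The immune regulators miR-155-5p (0.51 in EC3, -0.84 in EC4) and miR-146a-5p (0.68 and -0.51) had the signs of miR-150-5p. miR-142a-5p, made in all blood cells of marrow origin, had the opposite signs, with 12.47, 12.45 and 12.63 in resilient and 11.49 and 12.17 in susceptible EC3 mice, and with 11.91 and 11.85 in resilient and 12.44, 12.55 and 12.39 in susceptible EC4 mice. The difference of miR-142a-5p was thus negative in EC3 and positive in EC4 mice (limma, adjusted P = 0.101 for the interaction). The other 4, miR-21a-5p, miR-223-5p, miR-146b-5p and miR-342-5p, changed by 0.17, -0.34, 0.05 and -0.09 from EC3 to EC4 and had an interaction P above 0.05.

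The median of the let-7 family, which restrains growth, followed the signs of miR-142a-5p. It was -0.44 in EC3 and 0.23 in EC4, and 4 of the 10 members had an interaction P under 0.05 in limma. These were let-7a-5p, let-7b-5p, let-7c-5p and let-7f-5p, which changed by 1.08 to 1.44 from EC3 to EC4. The others changed by 0.02 (let-7d-5p) to 0.69 (let-7j), with the abundant let-7g-5p at 0.28. let-7b-5p was at 11.66, 12.28 and 12.03 in resilient and 10.77 and 11.33 in susceptible EC3 mice, and at 11.81 and 11.09 in resilient and 11.94, 11.81 and 12.09 in susceptible EC4 mice. The erythroid miR-144-5p differed by -0.49 in EC3 and 0.39 in EC4, whereas miR-451a, from the same cluster, differed by 0.40 and -0.16.

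Cell type markers in blood mRNA of the same mice (data set F) are given beside these values, and their interaction with the prefix was not tested. Between susceptible and resilient mice 266 of 13084 genes (2.03%) were nominally DE and none passed adjustment in limma, where 283 had an unadjusted P under 0.05. The 8 erythroid genes measured, such as Alas2 and Slc4a1, had a median difference of -1.05 in EC3 and 0.94 in EC4. Their summed level was 220746, 227815 and 160714 CPM in resilient and 84404 and 89771 CPM in susceptible EC3 mice, and 107691 and 51232 CPM in resilient and 212994, 104359 and 194178 CPM in susceptible EC4 mice. In EC4 mice the phenotypes overlapped. These CPM are scaled to a library size implied by the deposited values, which differed from the reads. In EC3 mice it was 8033311 to 10251072 in resilient and 9545937 and 17355124 in susceptible mice. In EC4 mice it was 12920497 and 23294520 in resilient and 9493683 to 15924828 in susceptible mice. The reads ranged from 9751603 to 15878495 over all of them. The part of this scaling in the marker differences was not tested.

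White cell markers had the opposite signs. The median difference of 11 T cell genes was 0.52 in EC3 and -0.22 in EC4, that of 9 B cell genes 0.27 and -0.58, that of 12 neutrophil genes 0.86 and -0.44 and that of 8 monocyte genes 0.75 and -0.85. For neutrophil and monocyte genes the EC3 difference lay in susceptible mouse 1, whose mean log2 CPM was 7.15 and 5.90. Susceptible mouse 2, at 5.74 and 4.81, was within the range of the resilient EC3 mice (5.34 to 5.90 and 4.48 to 5.05). For B cell genes the EC3 difference lay in susceptible mouse 2, at 6.45. Susceptible mouse 1, at 5.54, was within the range of the resilient EC3 mice (5.44 to 5.93). Over all mice these medians were 0.18, -0.14, 0.10 and -0.12, and of the 40 genes only the T cell genes Cd3e (1.08 ± 0.47, SE) and Cd28 (0.34 ± 0.15) were nominally DE. In each of these lists the signs of EC3 and EC4 were those of miR-150-5p. The 8 natural killer cell genes had 0.41 and -0.18, and the 10 platelet genes 0.01 and 0.76. The part of cell composition in the miRNA differences was not tested.

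**Figure D4:**
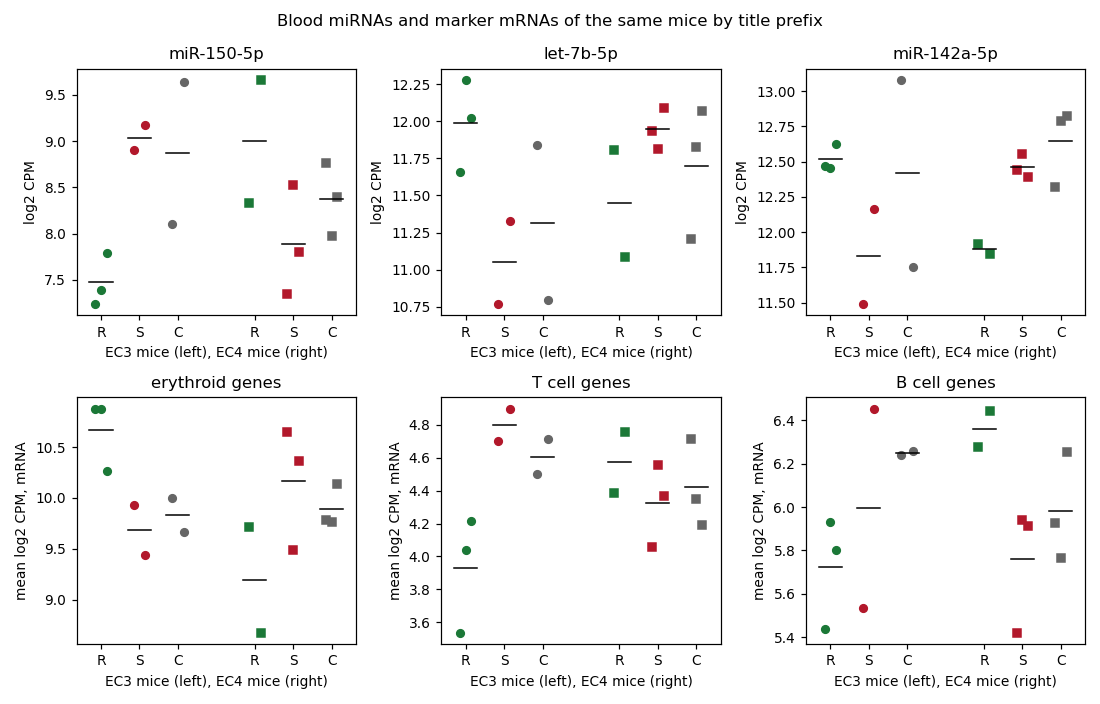
Levels of miR-150-5p, let-7b-5p and miR-142a-5p (log2 CPM, upper row) and mean log2 CPM of the erythroid, T cell and B cell genes in blood mRNA (lower row) of each resilient (R, green), susceptible (S, red) and control (C, grey) mouse, with EC3 mice as circles at the left, EC4 mice as squares at the right and bars at the means. miR-150-5p and the T cell genes were higher in susceptible than in resilient EC3 mice and on average lower in EC4 mice, and let-7b-5p and the erythroid genes had the opposite pattern.

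miRNAs and marker genes of a cell type did not always have the same signs. Of the erythroid miRNAs given above, miR-144-5p had the signs of the erythroid genes and miR-451a the opposite signs. The signs of miR-142a-5p were opposite to those of the white cell genes. miR-122-5p, a miRNA of hepatocytes, was at 5.46, 6.84, 5.86, 5.53 and 5.15 log2 CPM in resilient mice 1 to 5 and at 4.06, 3.66, 5.08, 5.85 and 5.17 in susceptible mice 1 to 5. Both EC3 susceptible mice lay under all resilient mice, and the EC4 susceptible mice lay among them or just under the lowest. The difference was -2.19 in EC3 and 0.03 in EC4, and -1.004 ± 0.58 (SE) over all mice (exact permutation P = 0.0873). Of the liver genes Alb, Apoa1, Ttr, Serpina1a and Fgb, 0 of 5 were among the 13084 blood genes analysed. The 12 genes of the miRNA machinery, such as Drosha, Dicer1 and Ago2, had a median difference of 0.03 and none was nominally DE. The 6 endothelial and 5 skeletal muscle genes had medians of 0.27 and 0.07, also with none nominally DE.

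**Figure D5:**
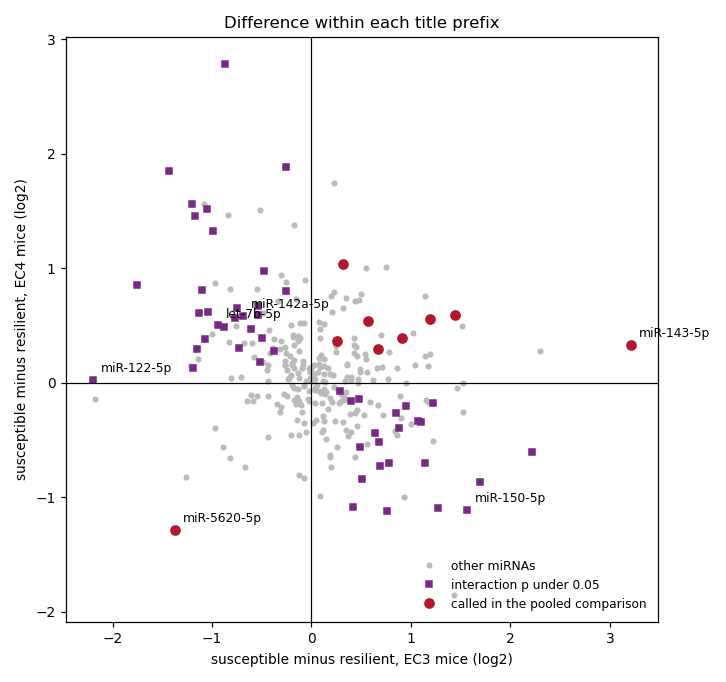
Difference between susceptible and resilient mice (log2) of the 299 blood miRNAs in EC3 mice (horizontal axis, 2 susceptible and 3 resilient) and in EC4 mice (vertical axis, 3 susceptible and 2 resilient), with the 9 nominally DE miRNAs as red circles and the 51 with an interaction P under 0.05 as violet squares. All violet points lie at upper left or lower right, and all red points at upper right or lower left.

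The same miRNAs were followed in the BNST, where AGO2-bound miRNAs (data set D) were sequenced from pools of 3 BNSTs, 3 susceptible and 5 resilient. There 31 of 788 miRNAs (3.93%) were nominally DE, and none of the 8 blood miRNAs that could be matched was among them. miR-744-5p was at 12.89 ± 0.16 log2 CPM in resilient and 12.94 ± 0.19 (SD) in susceptible pools, a difference of 0.05 ± 0.13 (SE) beside 0.35 in blood. miR-296-5p differed by 0.18 ± 0.18 and miR-345-5p by -0.18 ± 0.20.

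miR-181b-5p had 2 numbered entries in the AGO2 data, with differences of 0.30 ± 0.32 and 0.15 ± 0.14. miR-143-5p differed by 0.59 ± 0.55 and miR-6516-5p by -0.21 ± 0.31, while the errors were wide for miR-5620-5p (0.61 ± 1.01) and for the only entry of miR-30c-5p there, which is numbered 1 (-1.80 ± 1.35 at a mean of -0.44 log2 CPM). miR-126a-5p was nominally DE in the AGO2 data, at -0.35 ± 0.14. miR-141-5p was not analysed here for the AGO2 data. The blood and BNST values come from separate tables and were not tested against each other.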

How the data were processed

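Trunk blood was stored in TRIzol LS, small RNA libraries were made with a NEXTflex kit, and reads were counted by the authors with miRDeep2 on miRBase miRNAs and Bowtie 1.1.1 on GRCm38. The authors kept miRNAs with at least 1 CPM in at least 6 samples. They deposited log2 CPM values made with voom, with 0.5 reads added to each count. The library size implied by these values differs from the recovered reads, at 5824838 against 6916739 for blood miRNA of resilient mouse 4. Shares of reads and log2 CPM are therefore on different scales. Whole reads were recovered from these values within 0.0001 reads. They were used for depth, counting intervals, the simulated data and the fits with voom weights, scaling to total reads, added reads or a read minimum. How reads of identical mature sequences from several loci were shared is not given in the sources used here.

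Differences were fitted with limma 3.58.1 in R 4.3.3 on the deposited log2 values, with all 25 blood samples in 1 model of 5 groups, a mean-variance trend and Benjamini-Hochberg adjustment over all rows. AGO2 miRNA and blood mRNA were fitted alike on their own deposited values. Exact permutation tests were two-sided over all 252 splits of 5 against 5 mice, with 0.00794 as the smallest possible P. The mice were separate animals. The procedure was tested on simulated data. Figures were drawn with Python and matplotlib. Columns of comparisons by the authors were absent from the tables used.

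Named miRNAs were every nominally DE miRNA, the 5 most abundant, the member with the smallest P of each of 21 lists, those that the study names for blood and the 3 nearest to the P threshold. The members and lists were chosen with earlier results of these data known, and epithelial, let-7, white cell and miR-17 values beyond that rule were named after they had been seen. Positions of genes are those of GENCODE on GRCm38. In 2 D2 mice, which entered only the shared spread, label and column name disagreed, and the labels were used. The numbers of the AGO2 pools did not pair them, with correlations between -0.0773 and -0.00532. One gene of the erythroid gene list is not reported here and was left out of that list's values.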

Additional observations from a re-analysis of the deposited data

Results flagged for a closer look

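In 5 of 102 groups of 5 mice, 3 for each of the 34 named miRNAs, 1 mouse lay far from the other 4 of its group by Dixon's ratio, where about 1 group in 20 would be marked by chance. miR-30c-5p was lowest in resilient mouse 3, at 2.70 log2 CPM (51 reads) with the next mouse at 3.07. miR-744-5p was lowest in the same mouse, at 8.60 with the next at 8.82. miR-499-5p, a muscle miRNA, was highest in resilient mouse 4, at 6.98 with the next at 6.18. miR-449a-5p was highest in susceptible mouse 1, at 4.25 with the next at 3.65, and miR-6516-5p was lowest in control mouse 1, at 0.32 (8 reads) with the next at 1.25.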

How the results depend on the processing

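The count of 9 nominally DE miRNAs was 5 when values were centred on the median of abundant miRNAs, 5 with a minimum of 10 reads on average, 1 among the 98 miRNAs with a mean log2 CPM of at least 5 and 17 with sample weights. It ranged from 5 (without resilient mouse 3) to 15 (without resilient mouse 5) with 1 mouse left out, and of these calls 4 to 9 were among the 9. An exact permutation P under 0.05 with a fold of at least 1.2, a rule chosen after seeing the data, gave 11. In limma 0 miRNAs passed adjustment under each of these settings, with smallest adjusted P between 0.322 (without susceptible mouse 5) and 0.999. None of the 9 reversed. miR-34c-5p reversed without resilient mouse 4, and ranged from -0.0018 to 0.67 with 1 mouse left out.

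The AGO2 count of 31 was 31 with a replicate block and ranged from 22 to 81 with 1 pool left out, the highest without susceptible pool 4. The numbers of blood mice follow accession order and pair nothing. The group of the 2 D2 mice by column name, added after the values had been seen, gave 8. The median SE over all 299 miRNAs was 0.31 on the log2 scale, and 107 of them, with 5 of the 9, had fewer than 10 reads in at least 1 mouse.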
